A study of Mus musculus with 7 samples.

Results

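The crosslinks described here are positions reported as Argonaute crosslinks in exons of the neonatal mouse retina, beside a seed match of the let-7 or the miR-125 microRNA family. They were chosen by sequence alone: an exonic crosslink was a member when the 20 nt of spliced transcript on either side of it held the whole 7mer that pairs with bases 2 to 8 of let-7 or of miR-125. Of 14054 crosslinks, 10989 lay in exons of the GENCODE M21 annotation on the same strand, and 10922 of these had a complete window of 41 nt. There were 285 members, 228 with a let-7 match, 60 with a miR-125 match and 3 with both. They lay in 258 of the 4332 genes with an exonic crosslink, 204 with a let-7 match, 58 with a miR-125 match and 4 with both.

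Retina explants from CD-1 mice, taken at postnatal day 0, were kept for 24 h in high glucose DMEM with horse serum at 20%. The medium held 4-thiouridine, a uridine analogue that is built into new RNA, at 0.1 mM. Light of 365 nm, about 300 mJ/cm2, then linked that RNA to the proteins touching it (PAR-CLIP). The groups were 5 libraries made with the Argonaute antibody 2A8 and 2 control libraries made with IgG, each from 6 pooled retinas. All 7 share strain, age and culture, and the labels give no mutant or treated group. The deposited table pools the Argonaute libraries and gives each crosslink a score, the number of Argonaute libraries that shared it, from 2 to 5. Neither single libraries nor the IgG controls were analysed here, and the depth behind each position is unknown. In this table a higher level of the RNA and stronger binding cannot be told apart as sources of a higher score. Positions, matches and genes are not independent replicates, so intervals and p-values cover counting error only.

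Argonaute carries a microRNA whose bases 2 to 8, the seed, pair with a short stretch of an mRNA and bring silencing factors to it. let-7 was found in worms as a regulator of developmental timing, and miR-125 is the mammalian relative of worm lin-4, another timing microRNA. Both families accumulate as tissues differentiate, and in mouse retina they are known, with miR-9, to move progenitors from early to late fates. Well known let-7 targets are genes of the immature state, among them Lin28, Trim71 and members of the insulin-like growth factor pathway.

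The mature sequences below, from the RefSeq annotation of GRCm38.p6, show what the members share, with the seed in capitals.

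let-7a-5p: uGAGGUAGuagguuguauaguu

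miR-98-5p: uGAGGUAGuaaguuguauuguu

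let-7e-5p: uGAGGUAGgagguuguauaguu

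miR-125b-5p: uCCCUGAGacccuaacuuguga

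miR-125a-5p: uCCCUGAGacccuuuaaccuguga

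miR-351-5p: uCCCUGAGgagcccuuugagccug

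In RefSeq 11 mature mouse microRNAs had the let-7 seed and 5 had the miR-125 seed, and the 7mer cannot tell the members of a family apart. The motifs searched were CTACCTC for let-7 and CTCAGGG for miR-125, on the sense strand of the spliced transcript. The 2 motifs share the letters CTC, so a run of 11 bases can hold both. Base 9, the first after the seed, was U in 9 of the 11 let-7 sequences and A in 3 of the 5 miR-125 sequences.

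Of the 13 genes with a member in all 5 libraries, 6 are shown next as examples with the match at its most frequent place, chosen after their values were seen to cover 3′ UTR and coding sequence and both families. Each is printed as 24 nt of the GENCODE M21 transcript (mm10), with the 7mer in capitals. In each of them the crosslinked base is the T just before the capitals. The first 5 are let-7 sites and the last is a miR-125 site, and all 6 crosslinks were shared by 5 libraries.

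Trim6 3′ UTR, chr7:104233592-104233615, plus strand: aatactgattatagatCTACCTCa

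Smug1 3′ UTR, chr15:103155297-103155320, minus strand: gttctctaatgctgatCTACCTCa

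Gars coding sequence, chr6:55065476-55065499, plus strand: attttattggccgcatCTACCTCt

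Phip coding sequence, chr9:82876211-82876234, minus strand: ctaaagtcagaagtatCTACCTCt

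Zfhx3 coding sequence, chr8:108956728-108956751, plus strand: gatcctagcaccgcatCTACCTCg

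Prdm1 3′ UTR, chr10:44439489-44439512, minus strand: ccaatgttaccaaaatCTCAGGGc

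All 6 sites also have an A just before the crosslinked T, and the bases further upstream differ between them. The base after the match is A in Trim6 and Smug1, which makes those sites 8mers, and another base in the remaining 4.

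let-7 matches were present in 2.09% of the exonic windows (228 of 10922, exact 95% interval 1.83 to 2.37) and miR-125 matches in 0.549% (60 of 10922, 0.419 to 0.707). These shares are set by the rule and are given as a description. Windows of the same length moved by 100 nt along the same transcripts held let-7 in 0.277% (30 of 10826) upstream and 0.293% (30 of 10250) downstream. The same displaced windows held miR-125 in 0.286% (31 windows) and 0.322% (33 windows). For comparison, the same rule gave 249 positions for miR-9 and 398 for miR-17.

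Most matches started just after the crosslink. The 228 let-7 members held 220 distinct matches, and the 60 miR-125 members held 58. Of 219 let-7 matches clear of the crosslinked base, 202 started after the nearest crosslink (92.2%, 87.9 to 95.4; two-sided exact binomial test, adjusted p = 3.068e-40). Of 57 such miR-125 matches, 51 started after it (89.5%, 78.5 to 96.04; two-sided exact binomial test, adjusted p = 3.69e-09).

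**Figure D1:**
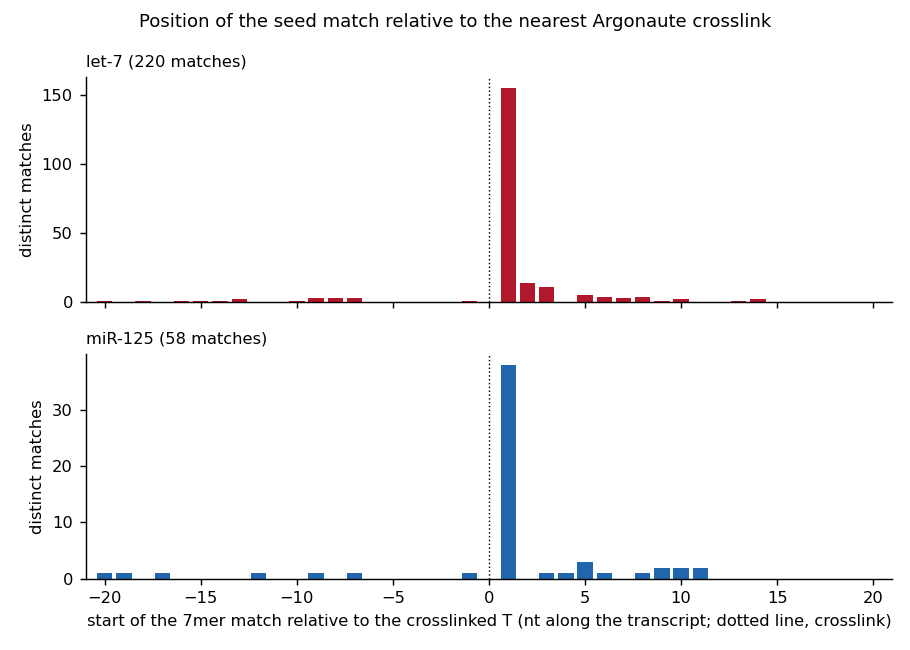
Number of distinct let-7 (top) and miR-125 (bottom) matches by the start of the 7mer relative to the nearest crosslinked T, in nt along the transcript. The bar at 1 nt after the crosslink holds 155 of 220 let-7 matches and 38 of 58 miR-125 matches.

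The start 1 nt after the crosslinked T was the most frequent by far, with 155 let-7 matches (70.5%, 64.0 to 76.4) and 38 miR-125 matches (65.5%, 51.9 to 77.5). At that place the crosslinked T faces base 9 of the microRNA, the base after the seed. A further 14 let-7 matches started 2 nt after the crosslink and 11 started 3 nt after it. Before the crosslink lay 17 let-7 and 6 miR-125 matches, spread thinly over the window, and 1 match of each family had the crosslink inside it. Within 5 nt of the edge of the window, 8 let-7 matches lay inside it, 1 of them in 3 or more libraries, and 8 lay outside it, 3 of them in 3 or more. For miR-125 there were 7 inside, 2 of them in 3 or more libraries, and 2 outside, none of them in 3 or more.

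This place also went with the number of libraries. Of let-7 matches that started 1 nt after the crosslink, 58.1% (90 of 155) had it in 3 or more libraries, against 21.5% (14 of 65) of let-7 matches elsewhere in the window. This gave an odds ratio of 5.01 (2.48 to 10.7; Fisher's exact test, two-sided, adjusted p = 4.925e-06). For miR-125 the shares were 44.7% (17 of 38) and 20.0% (4 of 20), a difference short of the threshold (odds ratio 3.18, 0.812 to 15.5; Fisher's exact test, two-sided, adjusted p = 0.1742). The let-7 call was lost when only crosslinks in all 5 libraries counted (odds ratio 4.87, Fisher's exact test, two-sided, adjusted p = 0.3493). At the same place, let-7 crosslinks were in 3 or more libraries in 58.1% and those of miR-9 and miR-17 together in 54.5% (225 of 413; odds ratio 1.16, 0.784 to 1.71; Fisher's exact test, two-sided, adjusted p = 0.6304).

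let-7 crosslinks were shared by more libraries than other exonic crosslinks. By number of libraries, 123 of the 228 let-7 members were in 2, 68 in 3, 26 in 4 and 11 in 5. In 3 or more libraries were 46.1% of let-7 members (105 of 228) and 29.1% of exonic crosslinks without a match of either family (3100 of 10637), beside 29.5% of all 10922. This gave an odds ratio of 2.08 (1.58 to 2.72; Fisher's exact test, two-sided, adjusted p = 4.167e-07). Within 3′ UTRs the shares were 51.9% (68 of 131) and 32.5% (2317 of 7140), beside 32.8% of all 3′ UTR crosslinks (odds ratio 2.25, 1.57 to 3.23; Fisher's exact test, two-sided, adjusted p = 1.721e-05). Within coding sequence they were 37.5% (33 of 88) and 21.3% (601 of 2828), beside 21.7% of all coding crosslinks (odds ratio 2.22, 1.38 to 3.52; Fisher's exact test, two-sided, adjusted p = 0.002416).

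**Figure D2:**
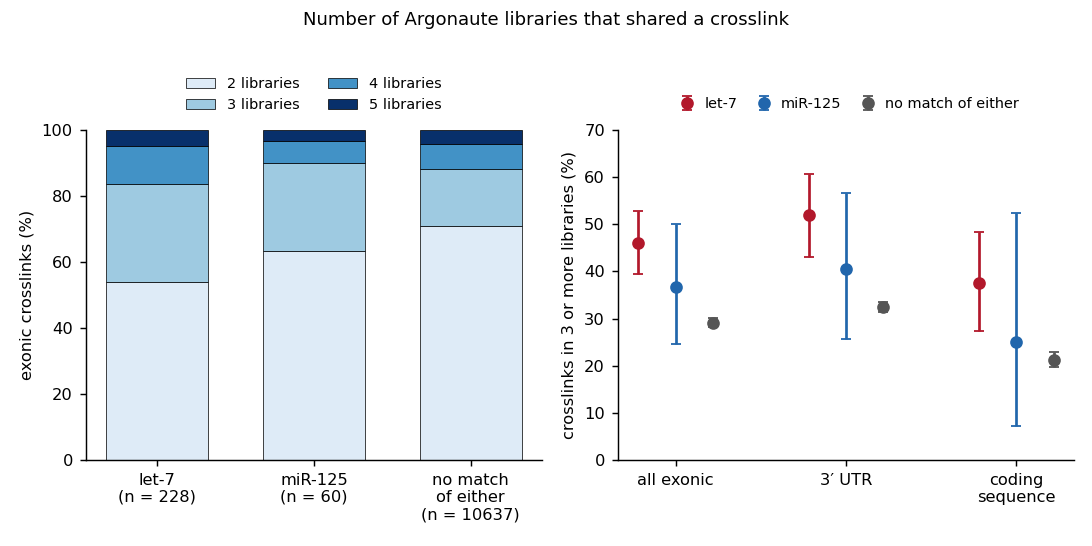
Left, percent of exonic crosslinks shared by 2, 3, 4 or 5 Argonaute libraries, for let-7 members, miR-125 members and crosslinks with no match of either. Right, percent in 3 or more libraries by class, with exact 95% intervals; let-7 stands at 46.1% of all exonic crosslinks against 29.1% without a match.

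The excess lay mostly among crosslinks in 3 libraries. Those in exactly 3 made up 29.8% of let-7 members and 17.4% of crosslinks without a match, those in 4 made up 11.4% and 7.49%, and those in all 5 made up 4.82% and 4.24%. With 4 or more libraries as the measure the odds ratio came to 1.46 (0.991 to 2.09; Fisher's exact test, two-sided, adjusted p = 0.1204), and with all 5 it was 1.15 (0.559 to 2.11; adjusted p = 1, same test). Inside 3′ UTRs the call was also lost with 1 position per gene (odds ratio 1.76, Fisher's exact test, two-sided, adjusted p = 0.07899), and inside coding sequence likewise (2.07, adjusted p = 0.1023, same test). The position kept for each gene was that with the highest score, so this setting chose positions by the value under test. The coding sequence call was also lost with 4 or more libraries (1.71, adjusted p = 0.3143) and with all 5 (1.60, adjusted p = 0.6872), by the same Fisher's exact test.

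The genes with let-7 members held 608 other exonic crosslinks. Of these 33.1% (201) were in 3 or more libraries, against 46.1% of the let-7 members of the same genes (odds ratio 1.73, 1.25 to 2.39; Fisher's exact test, two-sided, adjusted p = 0.002416). Crosslinks were pooled over these genes, so gene was not held fixed. Genes whose only exonic crosslink was the let-7 position, such as Smug1 and Txn2, entered on the let-7 side only. At 4 or more libraries the odds ratio in the same genes was 0.996 (0.640 to 1.53; Fisher's exact test, two-sided, adjusted p = 1).

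miR-125 members were in 2 libraries in 38 cases, in 3 in 16, in 4 in 4 and in 5 in 2. The share in 3 or more was 36.7% (22 of 60) beside 29.1% of crosslinks without a match, which was short of the threshold (odds ratio 1.41, 0.792 to 2.45; Fisher's exact test, two-sided, adjusted p = 0.3285). Within 3′ UTRs it was 40.5% (17 of 42) beside 32.5% (odds ratio 1.42, 0.716 to 2.73; Fisher's exact test, two-sided, adjusted p = 0.4602). Members of let-7 only were in 3 or more libraries in 45.8% (103 of 225) and members of miR-125 only in 35.1% (20 of 57), which was also short of it (odds ratio 1.56, 0.823 to 3.02; Fisher's exact test, two-sided, adjusted p = 0.3285). Nor did let-7 pass against miR-9 (46.2% and 41.9%; odds ratio 1.19, 0.815 to 1.75; adjusted p = 0.4602) or against miR-17 (46.1% and 43.5%; odds ratio 1.11, 0.789 to 1.56; adjusted p = 0.6605), both by Fisher's exact tests, two-sided.

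let-7 members lay in coding sequence more often than other crosslinks did. There were 131 in 3′ UTRs, 88 in coding sequence, 5 in 5′ UTRs and 4 in exons of noncoding transcripts. Of those in 3′ UTR or coding sequence, 59.8% of let-7 members (131 of 219) and 71.6% of crosslinks without a match (7140 of 9968) were in the 3′ UTR. This gave an odds ratio of 0.590 (0.445 to 0.784; Fisher's exact test, two-sided, adjusted p = 0.0005251), and with 1 position per gene it no longer passed (0.707, 0.469 to 1.08; adjusted p = 0.1946). miR-125 members numbered 42 in 3′ UTRs, 16 in coding sequence, 2 in noncoding exons and 0 in 5′ UTRs, with a 3′ UTR share of 72.4% (42 of 58) beside 71.6% (odds ratio 1.04, 0.571 to 1.98; Fisher's exact test, two-sided, adjusted p = 1).

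Against other families, the coding sequence share of let-7 was 40.2% (88 of 219) beside 19.9% for miR-17 (77 of 388; odds ratio 2.71, 1.85 to 3.99; Fisher's exact test, two-sided, adjusted p = 1.881e-06). With 1 position per gene that odds ratio was 2.00 and just missed the threshold of 0.05 (Fisher's exact test, two-sided, adjusted p = 0.05997). Beside miR-9 it was 40.1% and 42.7% (odds ratio 0.897, 0.607 to 1.32; Fisher's exact test, two-sided, adjusted p = 0.6655), and beside miR-125 it was 40.3% and 27.3% (odds ratio 1.795, 0.904 to 3.72; adjusted p = 0.1742, same test).

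The number of 7mers that could have been crosslinked was counted on 1 transcript for each of the 4332 genes. A let-7 crosslink stood at 18.8% of the let-7 7mers in 3′ UTRs (123 of 656, 15.8 to 21.95) and at 9.98% of those in coding sequence (85 of 852, 8.05 to 12.2). let-7 7mers were denser in coding sequence, at 9.53 per 100 kb, than in 3′ UTRs, at 6.65 per 100 kb. For miR-125 the crosslinked shares were 4.60% (40 of 869, 3.31 to 6.22) in 3′ UTRs and 1.70% (16 of 944, 0.972 to 2.74) in coding sequence. The intervals of let-7 and miR-125 did not overlap in either class; no test was made. miR-9 stood between them in 3′ UTRs at 13.3% (130 of 974), and miR-17 was above let-7 there at 23.8% (290 of 1219).

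**Figure D3:**
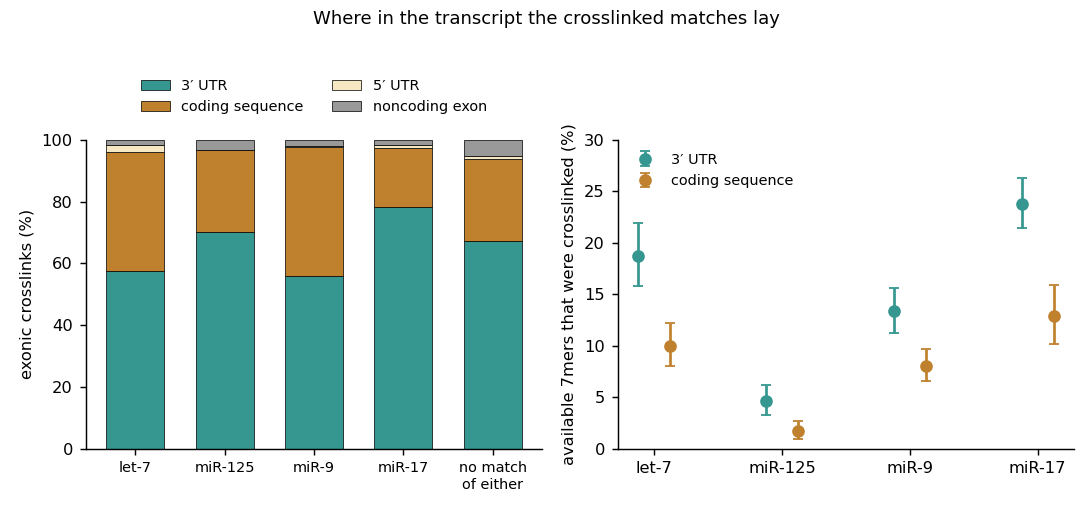
Left, percent of exonic crosslinks in each annotation class for let-7, miR-125, miR-9 and miR-17 members and for crosslinks with no let-7 or miR-125 match. Right, percent of the 7mers present on 1 transcript per gene that had a crosslink, with exact 95% intervals; for let-7 it was 18.8% in 3′ UTRs and 9.98% in coding sequence.

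The place beside the crosslink differed between classes for miR-125. In coding sequence 5 of 16 miR-125 matches (31.3%) started 1 nt after the crosslink, against 31 of 40 (77.5%) in 3′ UTRs (odds ratio 0.138, 0.0290 to 0.563; Fisher's exact test, two-sided, adjusted p = 0.005286). The call was lost with 8mers only (odds ratio 0.131, Fisher's exact test, two-sided, adjusted p = 0.08825) and with 1 position per gene (0.235, adjusted p = 0.3981, same test), where fewer matches remained. For let-7 the shares were 65.1% (56 of 86) in coding sequence and 73.6% (92 of 125) in 3′ UTRs (odds ratio 0.671, 0.354 to 1.27; Fisher's exact test, two-sided, adjusted p = 0.3869). All exonic crosslinks were on a T, so only a match just after a T could start 1 nt after one. Such a T stood before 7 of the 16 coding and 34 of the 40 3′ UTR matches of miR-125. For let-7 it stood before 61 of 86 and 99 of 125. That base was not held fixed in either test.

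Crosslinked matches were set beside the other matches of the same 3′ UTRs. Both kinds were pooled over 116 3′ UTRs for let-7 and 40 for miR-125. There were 33 other let-7 matches and 13 of miR-125, so most of these 3′ UTRs had crosslinked matches alone. 8mers, in which an A follows the 7mer, were 48.0% of crosslinked let-7 matches (60 of 125) and 42.4% of the others (14 of 33; odds ratio 1.25, 0.5401 to 2.96; Fisher's exact test, two-sided, adjusted p = 0.7534). For miR-125 they were 47.5% (19 of 40) and 15.4% (2 of 13), which did not pass (odds ratio 4.84, 0.884 to 50.5; Fisher's exact test, two-sided, adjusted p = 0.1151). When crosslinks farther than 10 nt did not count, 32 of the 40 stayed crosslinked and the rest were counted among the others. That comparison passed (odds ratio 4.67, 1.17 to 23.4; Fisher's exact test, two-sided, adjusted p = 0.04549). With the window itself cut to 10 nt it did not pass (odds ratio 2.22, 0.272 to 27.85; Fisher's exact test, two-sided, adjusted p = 0.6973), so an 8mer excess at close crosslinks is not settled. The number of libraries did not differ detectably between 8mers and other 7mers of let-7, with 49.6% (56 of 113) and 44.9% (48 of 107) in 3 or more (odds ratio 1.21, 0.687 to 2.12; Fisher's exact test, two-sided, adjusted p = 0.6392). For miR-125 these were 34.5% (10 of 29) and 37.9% (11 of 29; odds ratio 0.864, 0.257 to 2.87; adjusted p = 1, same exact test).

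A T stood just before 79.2% of the crosslinked let-7 matches (99 of 125) and 27.3% of the others (9 of 33). It stood before 85.0% of the crosslinked miR-125 matches (34 of 40) and 15.4% of the others (2 of 13). All 10989 exonic crosslinks were on a T, so a match with another base there could not be crosslinked at that place, and these shares carry no test. Of the 99 let-7 matches 92 were crosslinked at that T, as were 31 of the 34 of miR-125. The 30 nt on either side of the match were 60.0% A or T (median) at crosslinked let-7 matches and 55.0% at the others, and 60.0% and 46.7% for miR-125. Crosslinked matches lay at a median of 1034 nt from the stop codon against 1819 nt for the others (let-7), and at 619.5 nt against 1678 nt (miR-125). The length of the 3′ UTR was not held fixed in these distances. As a share of that length the medians were 44.3% and 52.2% for let-7, and 38.2% and 48.8% for miR-125. Nearer to the stop codon than to the end of the 3′ UTR were 52.8% of crosslinked and 48.5% of other let-7 matches, and 72.5% and 53.8% of those of miR-125. Pairing beyond the seed, sought as a match to bases 13 to 16 of a family member, was found at 7 of 125 crosslinked and 1 of 33 other let-7 matches (odds ratio 1.89, 0.229 to 88.2; Fisher's exact test, two-sided, adjusted p = 1). For miR-125 it was found at 4 of 40 and 3 of 13 (odds ratio 0.379, 0.0536 to 3.01; adjusted p = 0.534, same exact test).

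**Figure D4:**
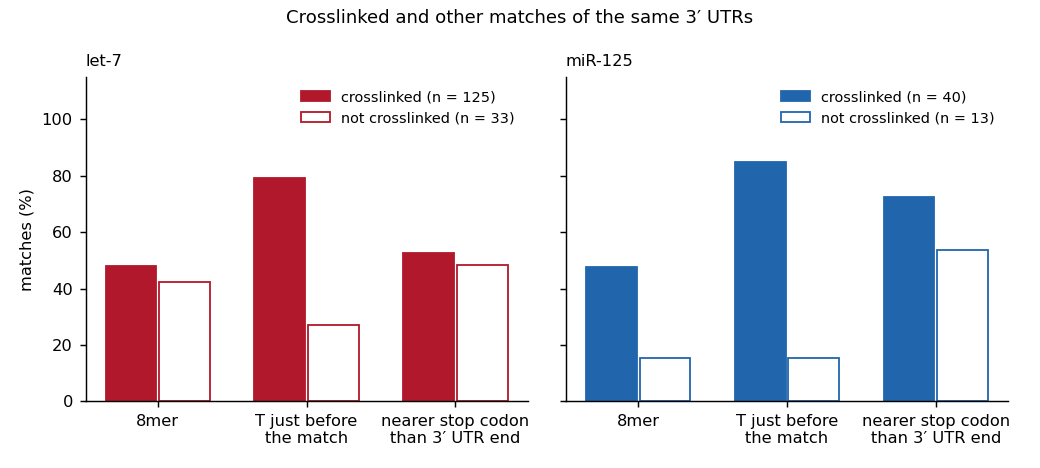
Percent of crosslinked (filled) and other (open) let-7 and miR-125 matches of the same 3′ UTRs that were 8mers, that had a T just before them, and that lay nearer to the stop codon than to the end of the 3′ UTR. A T preceded 79.2% of crosslinked and 27.3% of other let-7 matches.

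A member in all 5 libraries was found in 13 genes, 11 with a let-7 match and 2 with a miR-125 match. In 3′ UTRs these let-7 genes were Trim6, a ubiquitin ligase of the tripartite motif family, Smug1, a uracil DNA glycosylase, Txn2, the mitochondrial thioredoxin, Pbx2, a homeodomain cofactor, and Wnk3, a kinase that acts on chloride cotransporters. Gxylt1, which adds xylose to O-glucose on Notch, and Eif4g2, a translation initiation factor, completed the 3′ UTR group. In coding sequence they were Phip, a bromodomain protein that binds insulin receptor substrates, Gars, glycyl-tRNA synthetase, and Zfhx3, a zinc finger homeodomain factor. Kbtbd2, an adaptor of a cullin ubiquitin ligase, had its let-7 match in the 5′ UTR. The match of each of these 11 genes started 1 nt after a crosslink in 5 libraries.

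In Smug1 and Txn2 the let-7 position was the only exonic crosslink in the table. Kbtbd2 and Wnk3 had 2 exonic crosslinks each, let-7 position included, and Pbx2 and Gxylt1 had 4. Phip had 20 and Eif4g2 had 13, so the let-7 match was 1 of many positions there. The 2 miR-125 genes were Prdm1 and Lfng. Lfng, a glycosyltransferase that modifies Notch, had an 8mer in its 3′ UTR with crosslinks on both sides, 13 nt before it in 5 libraries and 17 nt from its start on the far side in 3. Neither of those positions is the place that most matches took.

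let-7 matches were repeated in few transcripts: 193 of the 204 let-7 genes had 1 crosslinked match, 7 had 2 and 4 had 3 or more. No gene had more than 1 crosslinked miR-125 match. The genes with 3 or more were Trim6, Trim71, Fign and Dicer1. Their matches were mostly 8mers, 5 of the 6 present in Trim6, 4 of 5 in Trim71, 4 of 4 in Fign and 3 of 4 in Dicer1.

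**Figure D5:**
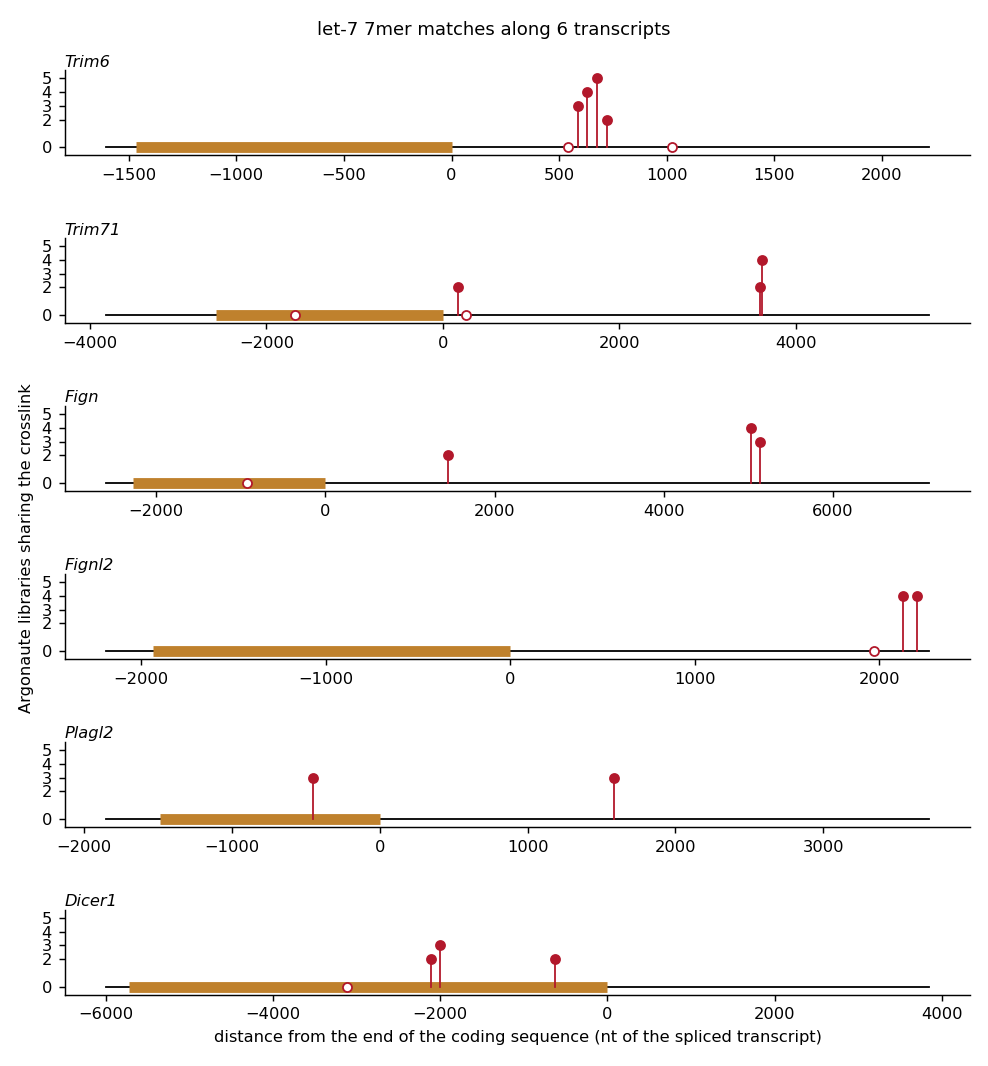
let-7 7mers along 6 spliced transcripts, by distance from the end of the coding sequence (thick bar), with the number of Argonaute libraries sharing the crosslink as height. Open circles at 0 are 7mers without a crosslink; Trim6 has 4 crosslinked matches 45 nt apart and an uncrosslinked one 45 nt before them.

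Trim6 had 6 let-7 7mers in its 3′ UTR, of which 4 were crosslinked, in 3, 4, 5 and 2 libraries in order along the transcript. All 4 exonic crosslinks of Trim6 were at these matches. The 4 matches were 45 nt apart in repeats of 45 nt that were identical at 42 to 44 bases, so reads of 1 copy may not be separable from those of another. Another match lay 45 nt before them and had no crosslink.

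Trim71, the vertebrate homologue of the worm let-7 target lin-41, had 4 let-7 7mers in its 3′ UTR. The match 166 nt after the stop codon was crosslinked in 2 libraries and those at 3591 and 3617 nt in 2 and 4. Of 4 exonic crosslinks in Trim71, 3 were at let-7 matches. Their sequences differ around the shared 8mer, in contrast to the repeats of Trim6.

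Trim71 3′ UTR, at 166 nt, chr9:114512472-114512495, minus strand: caacattgcctaagtcCTACCTCa

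Trim71 3′ UTR, at 3591 nt, chr9:114509047-114509070, minus strand: gtttagtatggattttCTACCTCa

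Trim71 3′ UTR, at 3617 nt, chr9:114509021-114509044, minus strand: tttggcaaaaagttgtCTACCTCa

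Fign, which encodes the microtubule-severing enzyme fidgetin, and its relative Fignl2 both had several crosslinked let-7 8mers in their 3′ UTRs. In Fign the matches were in 2, 4 and 3 libraries, and 3 of its 4 exonic crosslinks were members. In Fignl2 a pair of matches 75 nt apart was in 4 libraries each, and 3 of its 6 exonic crosslinks were members. Zc3hav1l had a pair of 3′ UTR matches, each with a crosslink in 3 libraries. Plagl2, a zinc finger factor, had 1 match in coding sequence and 1 in the 3′ UTR, each in 3 libraries.

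Dicer1, the enzyme that cuts microRNA precursors, had its 3 crosslinked let-7 matches in coding sequence and no let-7 7mer in its 3′ UTR. They were in 2, 3 and 2 libraries, and 17 of its 20 exonic crosslinks were elsewhere. The match in 3 libraries started 1 nt after its crosslink, the other two at other distances.

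Dicer1 coding sequence, chr12:104702696-104702719, minus strand: gggaacgctaacacatCTACCTCa

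In Gars a pair of overlapping let-7 matches 6 nt apart stood beside a single crosslink in 5 libraries. Dcc, the netrin receptor, had a pair of let-7 8mers 9 nt apart in coding sequence beside its only exonic crosslink, in 4 libraries. Prr36 and Zfhx4 each had a pair of coding sequence matches with crosslinks in 2 libraries.

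Matches of both families were crosslinked in 4 genes. In Hif1an, an asparaginyl hydroxylase of the hypoxia response, both 7mers overlapped in 1 run of 11 bases in the 3′ UTR, and the crosslink just before the let-7 7mer was in 4 libraries. The run is shown in capitals, and its first 7 bases are the let-7 match and its last 7 the miR-125 match.

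Hif1an 3′ UTR, let-7 and miR-125, chr19:44576165-44576191, plus strand: gtttgaaaatatCTACCTCAGGGttgc

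Smad7, the inhibitory Smad of TGF-beta signalling, had the same run of 11 bases in coding sequence, with 1 crosslink in 3 libraries and no other in its exons. These 2 genes account for the 3 windows that held both families, 2 of them in Hif1an. Prdm1 and Zfhx3 had separate matches, 227 and 190 nt apart.

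Prdm1 encodes Blimp1, a repressor that keeps photoreceptor precursors from the bipolar fate. Its miR-125 match in the 3′ UTR was crosslinked in 5 libraries and its let-7 match, near the end of the coding sequence, in 2. The let-7 match lay before its crosslink, with its start at -7 nt. Prdm1 had 20 exonic crosslinks in all. In Zfhx3 the let-7 match was in 5 libraries and the miR-125 match, at the far edge of its window, in 2.

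Of 33 genes listed as known let-7 targets, 24 had an exonic crosslink and 10 of these (41.7%) had one at a let-7 match, beside 4.71% of all genes with an exonic crosslink. By highest score these were E2f6, Tgfbr1 and Trim71 in 4 libraries, Arid3a, Dicer1, Igf2bp1, Plagl2 and Smarcad1 in 3, and Igf1r and Nras in 2. E2f6 is a repressor of the E2F family, Tgfbr1 a TGF-beta receptor and Igf2bp1 an RNA-binding protein of embryonic tissues. The list was written from general knowledge of let-7 but with earlier results of these data known, and no test was made over it. Of its 24 genes with an exonic crosslink, 21 had a let-7 7mer on the transcript. The 4.71% also covers genes without one, and the number of exonic crosslinks per gene was not held fixed.

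Another 11 listed genes had an exonic crosslink and a let-7 7mer on the transcript but no crosslink at it. Nr6a1 had 8 such 7mers, all in the 3′ UTR, and Lin28b and Hic2 had 5 each. Mycn and Ccnd1 were among the listed genes with no let-7 7mer on the transcript used, though each had a crosslink in 5 libraries. Lin28a, Hmga2, Hmga1 and 6 other listed genes had no exonic crosslink, which does not show that Argonaute was not bound there.

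Of 23 listed miR-125 targets, 11 had an exonic crosslink and 2 of these had one at a miR-125 match, Prdm1 in 5 libraries and Trp53inp1, a p53-induced gene, in 3. This stood beside 1.34% of all genes with an exonic crosslink, again without holding the number of crosslinks per gene fixed.

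The lists that follow rest on few genes each, and no test was made over them. A gene with more exonic crosslinks had more positions that could be members, and this number was not held fixed. Over all genes with an exonic crosslink, 4.71% had a let-7 crosslink and 1.34% a miR-125 crosslink. In the microRNA pathway, 2 of 18 genes (11.1%) had let-7 members, Dicer1 and Ago2. Ago2 encodes an Argonaute protein and had its 3′ UTR match in 3 libraries. Cnot6, a deadenylase of the CCR4-NOT complex, had a miR-125 match in coding sequence in 2 libraries, starting 3 nt after the crosslink. Igf2bp1 was the 1 let-7 gene among 34 RNA-binding protein genes (2.94%). Hnrnpu, which binds nuclear RNA, was the 1 with a miR-125 match, in 3 libraries. None of 3 crosslinked ribosomal protein genes had a member.

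In the TGF-beta and BMP pathway, 16 genes had an exonic crosslink. Of these, 12.5% had let-7 members and 12.5% had miR-125 members, beside 4.71% and 1.34% over all such genes. The let-7 members were in the receptor Tgfbr1 (4 libraries) and the inhibitor Smad7 (3 libraries). The miR-125 members were in Smad7 and in Acvr1b, an activin receptor (2 libraries). Both miR-125 matches started 5 nt after the crosslink. In the insulin, IGF and RAS list 3 of 21 genes (14.3%) had let-7 members. These were the receptor Igf1r and the GTPase Nras in 2 libraries, and Igf2bp1 in 3.

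Among 34 chromatin regulators 4 (11.8%) had let-7 members, all in 3 libraries, beside 4.71% of all genes with an exonic crosslink. These were Arid3a, an AT-rich DNA-binding protein, Smarcad1 and Chd7, both remodelling enzymes, and Smarcc1, a subunit of the BAF complex. Their exonic crosslinks numbered 5 in Arid3a, 4 in Smarcad1, 11 in Chd7 and 9 in Smarcc1. The Chd7 and Smarcc1 matches were in coding sequence. Among 19 cell cycle genes 2 (10.5%) had let-7 members, E2f5 and E2f6. Both were in 4 libraries and in 3′ UTRs, the E2f5 match 27 nt after the stop codon. Neither list had a miR-125 member.

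Among genes that mark retinal cell types, 1 gene at most in each list had a let-7 member and 1 at most had a miR-125 member. The lists are short, and over all genes with an exonic crosslink the shares were 4.71% for let-7 and 1.34% for miR-125. Of 15 progenitor and Müller glia genes with an exonic crosslink, Hes1, a Notch effector that keeps progenitors undifferentiated, had a let-7 match in its 5′ UTR in 3 libraries. Of 6 bipolar and horizontal cell genes, Onecut2, a factor of horizontal cells, had 1 in its 3′ UTR in 2 libraries. Of 8 photoreceptor genes, Prdm1 had both families, and of 10 ganglion cell genes Sox11, a neuronal differentiation factor, had a miR-125 match in 2 libraries. None of 13 amacrine cell genes had a member. The list of other ocular cell types had 2 of 19 genes with an exonic crosslink, of which Kdr, a growth factor receptor of blood vessels, had a miR-125 match in 2 libraries. Relative to the crosslink, the match started at -9 nt in Onecut2, 6 nt in Sox11 and 4 nt in Kdr, away from the most frequent place. The Hes1 match and the miR-125 match of Prdm1 started 1 nt after it.

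Over the 204 let-7 genes the highest score was 2 libraries in 105, 3 in 64, 4 in 24 and 5 in 11. Over the 58 miR-125 genes it was 2 in 37, 3 in 15, 4 in 4 and 5 in 2. The median over the 258 genes was 2 libraries, the lowest score in the table.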

How the data were processed

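PAR-CLIP of retina was summarised in a table of crosslinks. The deposited score of each position counts the samples containing it, per the file headers. CASAVA 1.8.2, STAR and bedtools were used with the mm10 build, per the submitters' processing notes; how crosslinks were called and predominant ones picked is not given in the sources used here. A deposited table of miR-216 sites, whose score has no header, was used only for a count of nearby sites.

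Positions were assigned to GENCODE M21 transcripts (Ensembl 96) on the same strand, coding genes first and then 3′ UTR, coding sequence, 5′ UTR and noncoding exon, and the longest in ties. Windows came from spliced sequence; 67 exonic positions without a full window and 3065 positions outside exons were left out. Matches were paired with the nearest crosslink.

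Shares have exact 95% Clopper-Pearson intervals. Fisher's exact and exact binomial tests were two-sided, with Benjamini-Hochberg adjustment over the 13 planned and, apart from these, 14 tests added after seeing the data (threshold 0.05), in Python 3.11.15 with scipy 1.17.1 and statsmodels 0.14.6. The let-7 search and the Fisher's exact test of recurrence were tested on simulated data, and the other tests were not. Alternatives changed the window (10 or 30 nt), match type, number of libraries, merging of positions, class order, noncoding exons, other families, the crosslink of each match and, added after seeing the data, Trim6. With 1 position per gene, the position with the highest score was kept.

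The genes named are those with a member in all 5 libraries, the 10 with the most matches, those with both families and up to 6 members of each list, which gave 39; Plagl2, Prr36, Zfhx4, Zc3hav1l, Nr6a1, Lin28b, Hic2, Mycn and Ccnd1 and the listed genes without exonic crosslinks were added after their values were seen. Members and lists were chosen with earlier results of these data known.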

Additional observations from a re-analysis of the deposited data

How the results depend on the processing

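Of 265 values that 29 results took under the alternatives, 225 kept their direction and their side of the threshold. The let-7 share of exonic crosslinks was 1.75% with 10 nt searched, 1.06% for 8mers only and 2.68% with 1 position per gene, and the miR-125 share was 0.392% with 10 nt and 0.275% for 8mers. let-7 recurrence, as an odds ratio against other crosslinks, lost its call with 4 or more libraries (1.46 exonic, 1.54 in 3′ UTRs, 1.71 in coding sequence) and with all 5 (1.15, 1.05 and 1.60); with 1 position per gene it was lost in 3′ UTRs (1.76), as was the 3′ UTR odds ratio of let-7 (0.707). The miR-125 odds ratio for 8mers passed when crosslinks farther than 10 nt did not count (4.67), where that of let-7 was 0.958. With the window itself cut to 10 nt neither passed (2.22 for miR-125 and 1.18 for let-7).

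All odds ratios that turned were uncalled in the main comparison, except let-7 against crosslinks of the same genes (0.996 with 4 or more libraries, 0.830 with all 5). With 4 or more libraries they were 0.725 against miR-17, 0.684 against miR-9, 0.706 against both at the most frequent place, and 0.836 for miR-125 against other exonic crosslinks. With all 5 libraries these were 0.580, 0.582, 0.568 and 0.779, with 0.931 for miR-125 in 3′ UTRs and 0.456 for let-7 8mers against other 7mers. With 1 position per gene they were 0.971 against miR-17, 0.865 against miR-9 and 0.980 for miR-125 in 3′ UTRs. The 3′ UTR odds ratio of miR-125 was 0.911 with 30 nt and 0.993 for 8mers, the recurrence of miR-125 8mers was 1.16 with 30 nt, the coding share of let-7 against miR-9 was 1.07 for 8mers, and the most frequent place of let-7 in coding sequence against 3′ UTRs was 1.22 with 10 nt. The cause was not tested.

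No paired analysis was possible because the table pools the libraries; for the same reason no library was left out. A planned comparison with miR-124 was not run, and that family was not removed from the rest where other families were.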

Other observations

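A match of another searched family was held by 8 of 228 let-7 windows. miR-125 was in 3 (1.32%, beside 0.549% of all exonic windows) and miR-9 in 3 (1.32%, beside 2.28%), with 0 for miR-17, miR-19, miR-30 and miR-181. Of 60 miR-125 windows, 5 held another family, 3 of them let-7. In coding sequence the let-7 7mer began at the first codon base in 18 matches, the second in 35 and the third in 33, and the miR-125 7mer in 7, 8 and 1. A deposited miR-216 site lay within 20 nt of the crosslink of 4 let-7 and 2 miR-125 matches.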
